A study of Mus musculus with 8 samples.

Results

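Classical inflammatory monocytes were chosen by their own UMI counts (unique molecular identifiers, which count captured RNA molecules) among CD45+ cells sorted from mouse skin wounds. A barcode counted as a kept cell if over 200 genes were found and mitochondrial UMIs stayed under 20%, and rates were taken per 10000 UMIs of the other genes. A monocyte had a summed rate of Fn1, Vcan and Ccr2 of at least 10, a summed rate of C1qa, C1qb and C1qc under 10 and 0 UMIs of Cd209a. A classical monocyte also had a summed rate of Ly6c2 and Plac8 of at least 5 and a summed rate of Ifit2, Ifit3, Rsad2 and Cxcl10 under 15, and met 1 further limit of the rule. The rule selected 1584 of 35158 kept cells, or 4.51%, and all 1584 entered the shares. Of the 3914 monocytes, 278 others were interferon-stimulated and 1357 had low Ly6c2 and Plac8. The cells came from full-thickness wounds, 5 mm wide, on the backs of male C57BL/6J mice. The diabetic group had received streptozotocin (STZ), a toxin of pancreatic beta cells, at 120 mg/kg when 4 weeks old, and no agent is named for the control group, which was wild-type. Wounds were taken on days 1, 3, 5 and 7, and 5 mice were pooled into 1 library for each group and day, so that the 8 libraries hold no separate animals and a day has no replicate. STZ models loss of insulin, and the age at wounding is not given in the sources used here.

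Classical monocytes are made in bone marrow and carry high Ly6C on their surface in mice. They leave the blood through the chemokine receptor CCR2 early after injury, release inflammatory cytokines and chemokines in the wound, and can mature into macrophages or take on features of dendritic cells. Ly6c2 encodes the Ly6C antigen, Plac8 a cytoplasmic protein abundant in young myeloid cells, Vcan the proteoglycan versican and Chil3 the secreted chitinase-like protein Ym1.

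The libraries held 19236522 to 33842509 UMIs, and the classical monocytes had a median of 4653 to 7922 UMIs in a library. The sets were of very unequal size, with 553, 131, 194 and 43 cells in the diabetic libraries of days 1, 3, 5 and 7 and 337, 292, 9 and 25 in the control libraries. The 9 cells of control day 5 gave 53546 UMIs and were left out of the gene tests, which asked for at least 20 cells. Lyz2, a lysozyme of myeloid cells, was found in 88.9% to 100% of the members of a library. A UMI of a defining gene of T cells, NK cells or another lineage was held by 267 members (16.9%), with 8.32%, 9.16%, 38.1% and 72.1% in the 4 diabetic libraries and 10.1%, 20.5%, 11.1% and 36% in the 4 control libraries, in order of day. Diabetic day 7 therefore stood apart. In CPM (UMIs of a gene scaled to a fixed total of the members' UMIs), the fibroblast genes Col1a1, Col3a1 and Dcn summed to 6.54, 3.37, 0.714 and 2155 in diabetic and 3.86, 23.5, 18.7 and 378 in control libraries, and the keratinocyte gene Krt5 was at 0 UMIs in all 8 libraries. Of all members, 18 were neutrophil-like, with a summed S100a8 and S100a9 rate of at least 200 and a UMI of Csf3r, Cxcr2, Retnlg or Il1r2. They too were left out wherever cells holding markers of other lineages were, which kept 1300 members. Scrublet, a doublet caller, marked 68 of all kept cells (0.193%) and 0 members, too few for the caller to be relied on, and its calls were left out only as an alternative. No cell had identical counts in 2 libraries, and the tables carry no barcode sequences by which sharing could be counted further.

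The label was checked against the marker genes after each cell was thinned to 1000 UMIs, with T cells of the same libraries set beside the members. T cells were kept cells with at least 2 UMIs in all of Cd3d, Cd3e, Cd3g, Trac and Trdc. They also lay outside the monocyte rule and had a summed rate of C1qa, C1qb and C1qc under 10. Doublets were not taken out of them, and how much of their myeloid RNA was free RNA was not tested. Ly6c2 and the other rule genes are high by the choice of cells and are given as a description. Ly6c2 had a UMI in 54.7%, 51.6%, 53.8% and 57.9% in diabetic and 66.9%, 65.9%, 50% and 48.0% in control libraries on days 1, 3, 5 and 7, against 10.8% to 29.8% of T cells. Vcan was found in 30.4% to 75.0% of members and 0% to 1.59% of T cells, and Ccr2 in 37.3% to 60.0% against 11.6% to 18.2%. Chil3, which the rule did not use, was found in 74.9%, 57.9%, 28.0% and 39.5% in diabetic and 61.7%, 31.5%, 50% and 20% in control libraries, against 0% to 21.3% of T cells. Csf1r, a receptor of monocytes and macrophages that is also outside the rule, was found in 32% to 75.0% of members and 5.26% to 25.6% of T cells, and the shares were closest on control day 7, at 32% and 24.4%. Lyz2 was found in 87.5% of members and 90.9% of T cells on control day 5, so that there it did not separate them. On diabetic day 7 the median Lyz2 rate was 44.6 in members with a marker of another lineage and 84.0 in those kept when such cells were left out, so the label is least certain in that library. At the edge of the rule, the 79 members with a Ly6c2 and Plac8 rate of 5 to under 6 had Chil3 at 1085 CPM, and the 76 other monocytes with a rate of 4 to under 5 had 1846, so the threshold marks a range and not a gap. The median rate of all members was 24.3.

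The share of classical monocytes among the wound leukocytes was highest on day 1 in both groups, and the order of the groups changed between days. On day 1 they were 11.6% of kept cells in the diabetic group (exact 95% binomial interval 10.7% to 12.6%) and 7.64% in the control group. In the same order the shares were 2.41% and 6.08% for day 3, 4.64% and 0.276% for day 5, and 1.18% and 0.537% for day 7. The diabetic group was thus higher on 3 of 4 days and lower on day 3. The differences of 3.99, -3.67, 4.36 and 0.642 percentage points had a mean of 1.33, and an exact two-sided sign-flip permutation test over the 4 days gave p = 0.375, where 0.13, rounded, is the smallest p that 4 days allow. As a share of the monocytes alone, classical cells made up 49.0%, 32% (day 3), 35.7% and 14.7% in diabetic and 40.7%, 54.4%, 11.3% and 26.3% in control libraries, so that the order on day 7 turned. Without the cells holding markers of other lineages the day 7 difference was -0.0422 points. Intervals cover counting error only, since each share is that of 1 library.

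**Figure D1:**
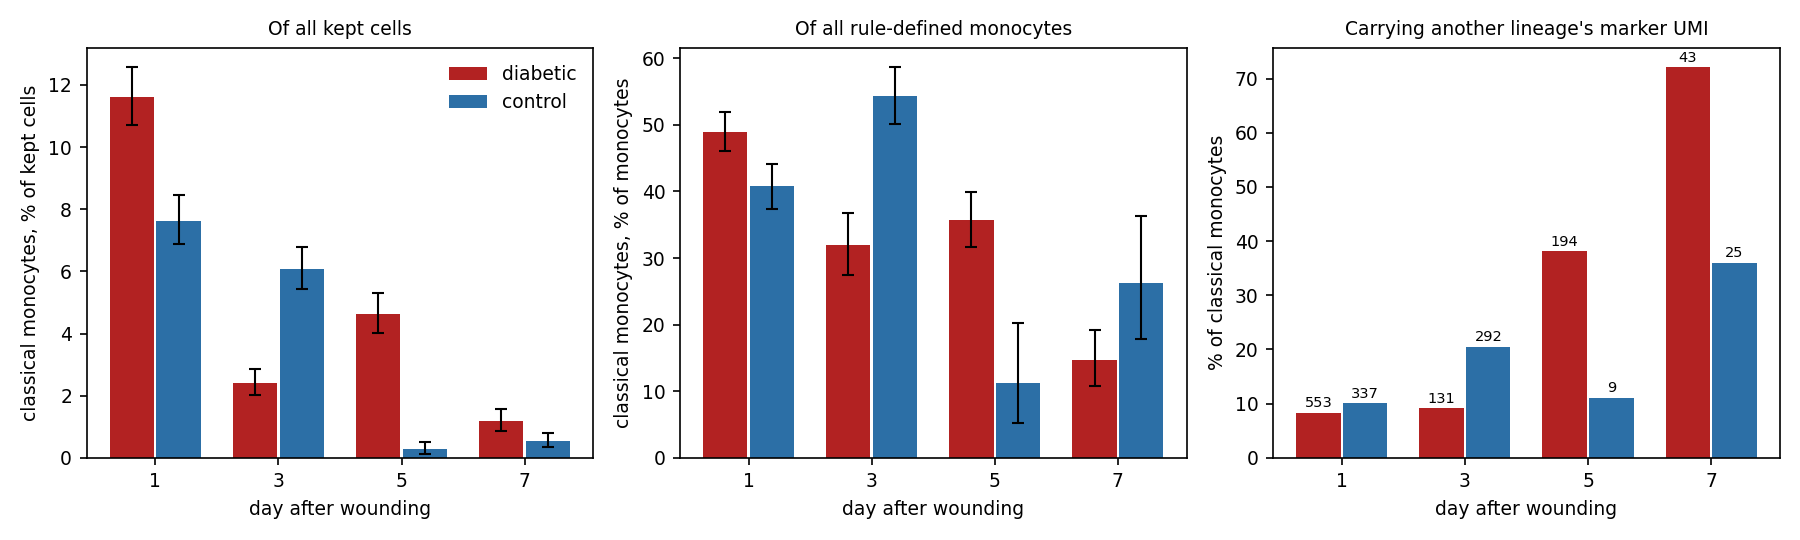
Classical monocytes by day in diabetic and control libraries as a percent of kept cells (left) and of monocytes (middle), with exact 95% binomial intervals, and the percent of them with a UMI of another lineage's marker (right, with the number of classical monocytes above each bar). Diabetic day 1 has the highest share of kept cells at 11.6% and control day 5 the lowest at 0.276%, and diabetic day 7 has the most cells with another lineage's marker at 72.1%.

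Between the groups, Saa3, Chil3 and Il1rn were higher in the classical monocytes of diabetic wounds, and had the lowest adjusted p of the genes named by rule, in a test whose calls changed with the libraries used. The libraries were compared by edgeR's quasi-likelihood test on UMIs summed over the members, with day as a block, so that the days stand in for replicates. Of 9087 genes tested, 28 passed an adjusted p (Benjamini-Hochberg) of 0.05, or 0.308%, with 27 higher in the diabetic group (0.297%) and 1 lower (0.0110%). Days 1, 3 and 7 carried the comparison, because control day 5 was left out. The calls are fragile. With day 5 removed altogether, which takes away only a diabetic library without a control partner, the same 3 pairs gave 0 calls (424 genes at an unadjusted p under 0.05). All 26 of the called genes still tested kept their direction, which adds no support because the same 3 pairs set it. Without day 7 there were 2 calls, and without the day block 0 (254 genes at an unadjusted p under 0.05). The levels in each library are therefore given before the tests.

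Saa3 encodes serum amyloid A3, an acute-phase protein made by macrophages and epithelia. Its level in CPM, the scale of all levels below, was 1353, 1064, 69.9 and 245 in diabetic and 704, 157, 0 and 19.2 in control libraries in order of day. Each diabetic library was above the control library of its day, and control day 5 held 0 of 53546 UMIs, where 3 UMIs would be 56.0 CPM. The intervals of the ratios below cover UMI counting error only, since each value is that of 1 library. The ratio of diabetic to control was 1.92 (95% interval 1.82 to 2.03) on day 1, 6.78 (95% interval 5.93 to 7.76) on day 3 and 12.7 (95% interval 4.16 to 63.5) on day 7, and the log2 fold change in edgeR was 2.06 ± 0.30 (SE), adjusted p = 0.00103, with adjusted p of 1.27e-13 to 1 over the alternatives. Chil3 was at 3695, 4692, 699 and 972 in diabetic and 2818, 569, 616 and 275 in control libraries. The groups were nearer on days 1 and 5 than on day 3, where the ratio was 8.25 (95% interval 7.70 to 8.83). Its log2 fold change was 1.77 ± 0.30 (SE), adjusted p = 0.00562, with 3.25e-13 to 1 over the alternatives. Il1rn, the antagonist of the interleukin-1 receptor, was at 1666, 1371, 1149 and 1355 in diabetic and 1088, 459, 467 and 359 in control libraries. The lowest diabetic value was 1149, on day 5, and the highest control value 1088, on day 1. The log2 fold change of Il1rn was 1.35 ± 0.22 (SE), adjusted p = 0.00365, with 1.34e-07 to 1 over the alternatives.

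T cells, set beside the members for comparison, held some RNA of these genes. In T cells of the same libraries Saa3 was at 349, 119, 63.3 and 78.6 in diabetic and 46.8, 83.7, 7.17 and 23.3 in control libraries, and Chil3 at 557, 224, 15.4 and 58.2 in diabetic and 148, 34.1, 2.87 and 7.00 in control libraries. Chil3 was lower in T cells than in the members in all 8 libraries. Saa3 was lower in T cells on days 1 and 3 in each group and on diabetic day 7, was near the members' level on diabetic day 5 and was above it on control days 5 and 7. The control value in the day 7 ratio was thus under that of T cells. Il1rn in T cells, at 1414, 659, 1054 and 522 in diabetic and 1674, 253, 198 and 264 in control libraries, was above the level of the members on control day 1. In the members without markers of other lineages, Saa3 was at 1263, 1088, 69.8 and 1207 in diabetic and 746, 182, 0 and 20.6 in control libraries and Chil3 at 3872, 4578, 749.6 and 1251 in diabetic and 2884, 604, 395 and 299 in control libraries, so that the diabetic value on day 3 was above the control value there too. The diabetic day 7 values of these members rest on 11 cells, against 43 members in all. The part of free RNA in the differences was not tested.

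Of 15 inflammatory cytokines and enzymes, 4 were higher in the diabetic group by edgeR and 0 lower, with a median log2 fold change of 0.79 against -0.02 over all genes tested. Saa3 and Il1rn were joined by Acod1, which makes the antimicrobial metabolite itaconate, and by the anti-inflammatory cytokine Il10. Acod1 was at 1343, 1453, 465 and 506 in diabetic and 1049.8, 261, 374 and 211 in control libraries, and Il10 at 856, 717, 455 and 784 in diabetic and 559, 158, 37.4 and 455 in control libraries. Both were above control on days 1, 3, 5 and 7, with log2 fold changes of 1.39 ± 0.28 (SE), adjusted p = 0.0176 for Acod1 and 1.23 ± 0.25 (SE), adjusted p = 0.0176 for Il10. The control values of day 5 rest on 9 cells that were not in the test, and that of Il10 was under the level of 3 UMIs. Acod1 in T cells was at 1896, 647, 598 and 237 in diabetic and 1177, 219, 18.7 and 147 in control libraries, above the members on diabetic days 1 and 5 and on control day 1. Il1b, Tnf, Il1a and Ptgs2 did not pass. The values were 0.61 ± 0.18 (SE), adjusted p = 0.266 for Il1b, 0.69 ± 0.21 (SE), adjusted p = 0.265 for Tnf, 1.49 ± 0.35 (SE), adjusted p = 0.0521 for Il1a and 0.83 ± 0.21 (SE), adjusted p = 0.0885 for Ptgs2, the inducible cyclooxygenase.

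The other genes called included Tnip1 and Tnip3. These genes, which bind the inhibitor A20, had log2 fold changes of 1.29 ± 0.25 (SE), adjusted p = 0.0165 and 1.22 ± 0.25 (SE), adjusted p = 0.0215. Tnip1 was at 395, 411, 296 and 396 in diabetic and 254, 155, 261 and 83.3 in control libraries, above control on all 4 days, though on day 5 the control value rests on 9 cells. Inhba, a subunit of activin A, was at 510.0, 215, 249 and 318 in diabetic and 385, 39.9, 56.0 and 44.8 in control libraries, with 1.61 ± 0.31 (SE), adjusted p = 0.0165. Slpi, a secreted inhibitor of neutrophil elastase, was at 4544, 2478, 1461 and 1114 in diabetic and 3573, 895, 448 and 365 in control libraries, with 1.13 ± 0.22 (SE), adjusted p = 0.0176, and was the 1 of 10 alarmins and secreted defence genes to pass. T cells held Slpi at 2482, 669, 1134 and 375 in diabetic and 2235, 305, 43.0 and 231 in control libraries, also highest on day 1 in each group, in cells that should lack it. Cd40, the costimulatory receptor, had 1.30 ± 0.27 (SE), adjusted p = 0.023, and the chemokine Cxcl16, 1 of 12 chemokines to pass, had 1.03 ± 0.23 (SE), adjusted p = 0.035. Ifit1 was the only 1 of 18 interferon-stimulated genes outside the rule to pass, at 1.93 ± 0.38 (SE), adjusted p = 0.0176, and Ifi205, another interferon-inducible gene, had 1.67 ± 0.32 (SE), adjusted p = 0.0165. Sod2, Tnfaip2, Jak2, Gbp5, Il7r, Marcksl1, Serpinb2 and Gm6377 were also called higher. Of these, Gbp5 (36.7 against 44.8) and Serpinb2 were lower in the diabetic library on day 7. Of the 28 called genes, 22 had the same direction in all 3 pairs, as had 27.4% of the 9087 genes tested. Of the 12 identity genes of monocytes 1, Chil3, passed, and their median was -0.17.

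Some of the called genes are known from other lineages, and several were highest on diabetic day 7. The collagen gene Col1a2 was at 1.09, 3.37, 2.14 and 959 in diabetic and 0.386, 3.28, 0 and 154 in control libraries, and its log2 fold change was 2.14 ± 0.43 (SE), adjusted p = 0.0176. Nid1 and Serping1, also made by stromal cells, had 216 and 489.8 CPM on diabetic day 7 and at most 6.40 elsewhere, and C4b was at 229 there. Icos, a costimulatory receptor of T cells, was at 36, 19.1, 54.2 and 302 in diabetic and 6.95, 14.8, 18.7 and 70.5 in control libraries, and Ngp, a granule gene of immature neutrophils, was at 39.5, 12.4, 0 and 0 in diabetic and 3.86, 2.19, 0 and 0 in control libraries. The single gene lower in the diabetic group was the platelet chemokine Ppbp, at 52.3, 2.25, 16.4 and 0 in diabetic and 373, 2.19, 18.7 and 0 in control libraries, where the groups were apart on day 1 and at or near 0 in both on days 3 and 7. Without the cells holding markers of other lineages, the day 7 libraries fell under 20 cells and 51 genes were called from the 5 libraries left, 20 of them among the 28. With at least 5 such cells 8 libraries remained and 30 genes were called, 17 of them among the 28. The lists of glycolysis and hypoxia, macrophage maturation, repair and matrix, MHC class II, transcription factors, non-classical genes, immature granule and cycling genes, immediate early genes, iron genes, recruitment receptors, and pattern and Fc receptors had 0 members called in edgeR in either direction. Over all genes 507 had an unadjusted p under 0.05, and DESeq2 called 19 genes, 18 of them shared.

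**Figure D2:**
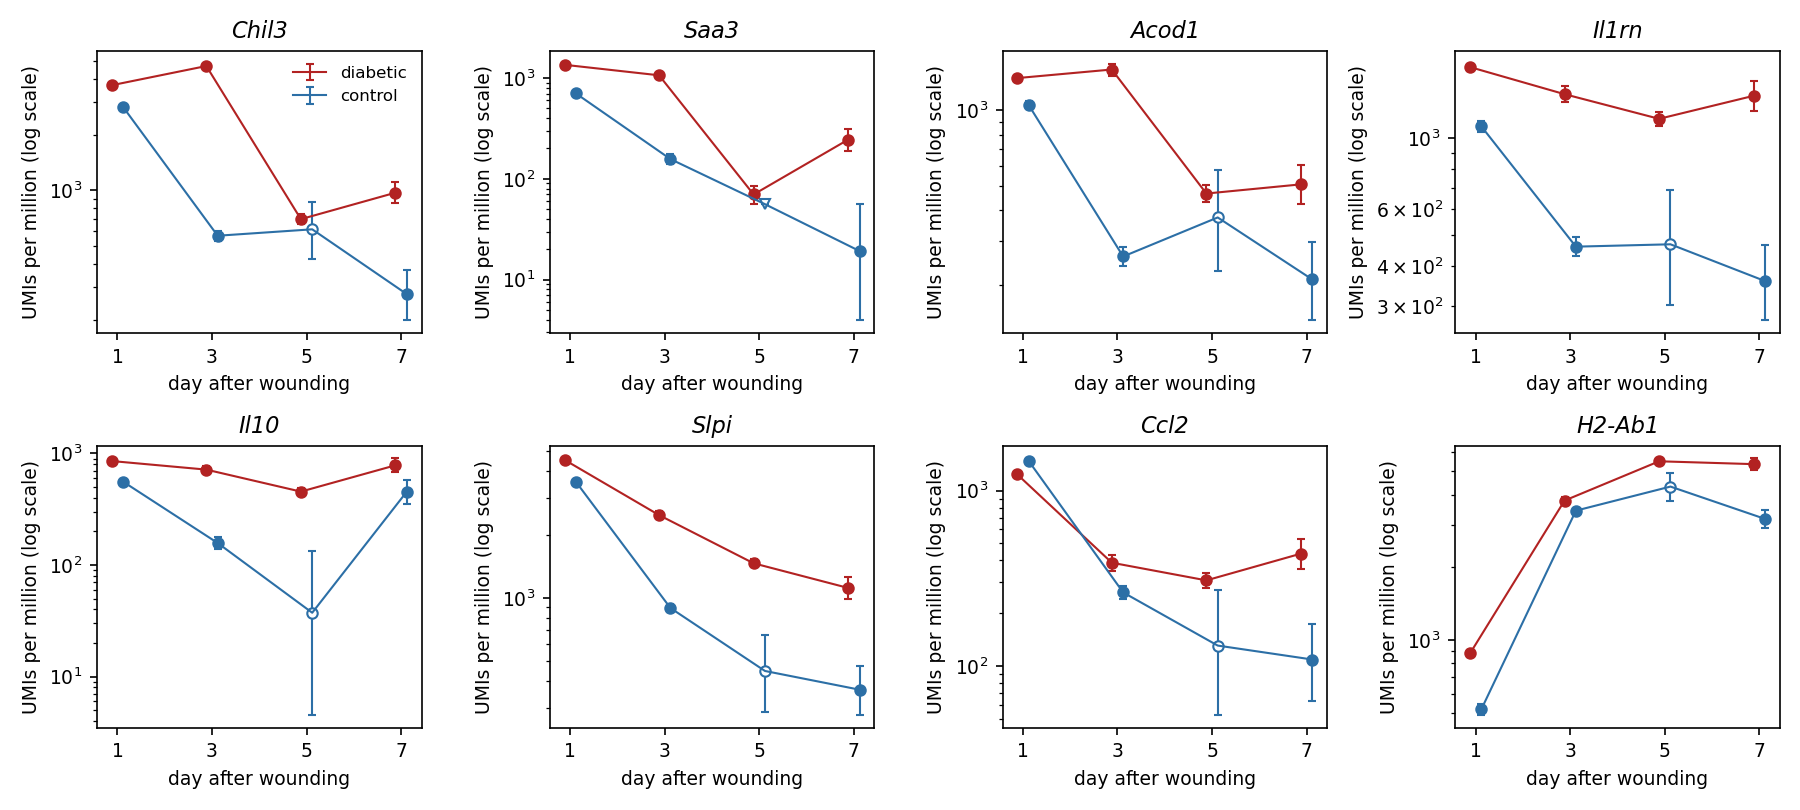
CPM in the classical monocytes (log axis) for 8 genes in each library, by day, diabetic and control. Bars are exact 95% Poisson intervals, open points are control day 5 with 9 cells, and the open triangle is the level of 3 UMIs where 0 were counted. Saa3, Chil3 and Il1rn lie higher in the diabetic library on days 1, 3 and 7.

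**Figure D3:**
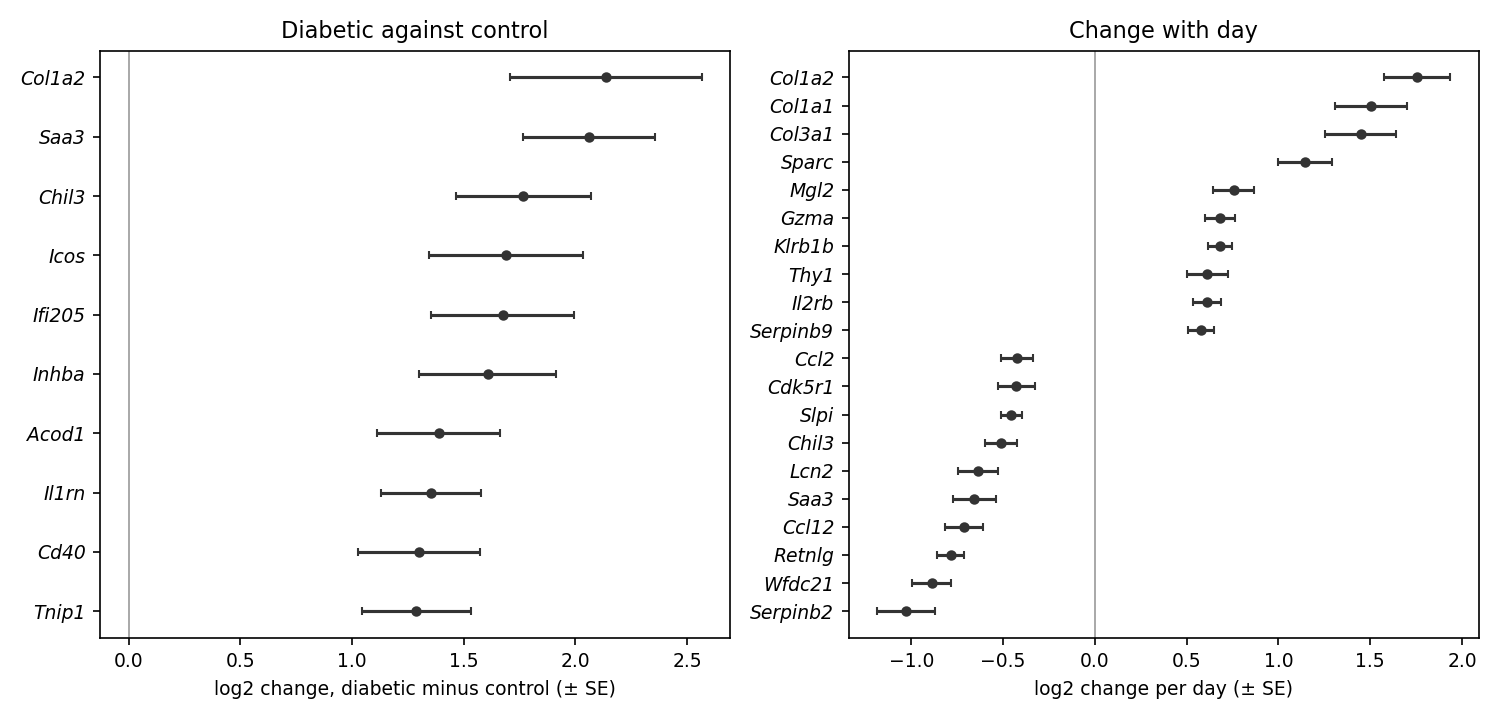
Log2 changes with standard errors for the genes named by rule in classical monocytes, between diabetic and control (left) and per day (right). All 10 genes on the left are higher in the diabetic group, and on the right 10 genes rise, led by Col1a2, and 10 fall, with Serpinb2 the steepest.

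Promoters are shown for Saa3 and Chil3, the genes with the lowest adjusted p among those whose promoter held a match, and for Tnip1, which held matches to more than 1 motif. RefSeq (GRCm38.p6) sequences of 300 bases, 250 before and 50 after the gene start, were found for 21 of the 27 genes called higher. Both strands were searched for an NF-kB motif (GGGA, any 2 bases, T, any base, CC), a C/EBP motif (TTGCNNAA) and a STAT motif (TTCCNGGAA), and matches are in capitals. NF-kB letters were in 4 of 21 promoters (19%; Chil3, Gbp5, Tnip1 and Tnip3) and in 3.92% of 27025 promoters, C/EBP letters in 7 of 21 (33.3%) and 10.8%, and STAT letters in 1 of 21 (4.76%) and 1.15%. These are descriptions of letters over a short list and no test was made. The Saa3 match began 99 bases before the start, the Chil3 match 231 bases, and the Tnip1 matches 57 bases (NF-kB) and 199 bases (STAT). The promoters lie at chr7:46715627-46715926, minus strand, chr3:106167515-106167814, minus strand and chr11:54962891-54963190, minus strand, and are printed 5′ to 3′ on the strand of the gene.
Saa3: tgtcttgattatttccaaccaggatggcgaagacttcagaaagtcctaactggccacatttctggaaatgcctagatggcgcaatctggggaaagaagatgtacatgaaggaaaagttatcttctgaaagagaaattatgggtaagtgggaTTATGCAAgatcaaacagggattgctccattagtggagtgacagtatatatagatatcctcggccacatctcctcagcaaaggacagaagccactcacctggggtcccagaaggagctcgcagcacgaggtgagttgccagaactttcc
Chil3: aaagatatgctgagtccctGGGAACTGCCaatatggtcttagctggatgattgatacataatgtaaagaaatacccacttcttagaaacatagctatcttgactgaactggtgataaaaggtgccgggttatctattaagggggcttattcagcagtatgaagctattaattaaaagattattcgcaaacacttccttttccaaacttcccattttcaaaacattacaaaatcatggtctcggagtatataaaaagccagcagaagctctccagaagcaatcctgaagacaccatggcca
Tnip1: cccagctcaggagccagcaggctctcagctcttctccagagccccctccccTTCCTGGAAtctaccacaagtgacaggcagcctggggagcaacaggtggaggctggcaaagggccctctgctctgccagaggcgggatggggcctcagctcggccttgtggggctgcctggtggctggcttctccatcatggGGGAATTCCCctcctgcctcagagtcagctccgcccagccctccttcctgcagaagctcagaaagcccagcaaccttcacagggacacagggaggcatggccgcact

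Over the days, the levels of several chemokines and alarmins in the classical monocytes fell, in a fit over both groups, and T cells held RNA of the same genes. A slope per day with group as a term was called in 138 of 8215 genes (1.68%), of which 87 rose (1.06%) and 51 fell (0.621%). The excess of rises depended on the setting. Without cells holding markers of other lineages 13 rose and 13 fell, or 44 and 54 where libraries with at least 5 such cells were kept. With no filter on low counts 267 rose and 293 fell, and with DESeq2 156 rose and 71 fell. Of 10 alarmins and defence genes, 5 fell (S100a8, S100a9, Slpi, Lcn2 and Wfdc21) and 0 rose, with a median slope of -0.22 in log2 per day against -0.0024 over all genes. S100a8, a subunit of calprotectin, was at 1525, 1067, 628 and 445 in diabetic and 1844, 654, 467 and 436 in control libraries. Day 1 was the highest in each group, and the slope was -0.34 ± 0.05 (SE), adjusted p = 0.00121. T cells of the same libraries held S100a8 at 5673, 1195, 1103 and 512 in diabetic and 3609, 695, 118 and 644 in control libraries, above the members in all but control day 5, and S100a9 was likewise above the members in all but that library. In cells thinned to 1000 UMIs, S100a8 had a UMI in 12.5% to 66.2% of members and 10.4% to 72.6% of T cells of a library. The share was higher in members in 4 of 8 libraries and in T cells in the other 4, so that S100a8 does not set the members apart from T cells. Of 12 chemokines, 5 fell (Ccl2, Ccl3, Ccl6, Ccl9 and Ccl12) and 0 rose. Ccl2, the main ligand of CCR2, was at 1236, 388, 308 and 437 in diabetic and 1476, 263, 131 and 109 in control libraries, a slope of -0.43 ± 0.09 (SE), adjusted p = 0.0184. Ccl6 was at 3102, 1361, 889 and 788 in diabetic and 3602, 1078, 1102 and 801 in control libraries, with -0.36 ± 0.05 (SE), adjusted p = 0.00166. In T cells Ccl2 was at 618, 156, 37.8 and 150.1 in diabetic and 663, 182, 78.9 and 138 in control libraries and Ccl6 at 1119, 284, 428 and 319 in diabetic and 1039, 171, 245 and 303 in control libraries, so that both were also highest on day 1 in cells that should lack them.

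Saa3 and Chil3 fell as well, at -0.66 ± 0.12 (SE), adjusted p = 0.00703 and -0.51 ± 0.09 (SE), adjusted p = 0.00509 in log2 per day, as did Acod1 at -0.36 ± 0.07 (SE), adjusted p = 0.0112. Over the alternatives the adjusted p of the slope reached 0.14 for Saa3 and 0.211 for Chil3. In the members without markers of other lineages, Saa3 on diabetic day 7 (11 cells) was close to its diabetic day 1 level. Chil3 was below its own day 1 level there. Serpinb2, an inhibitor of plasminogen activators, had the steepest fall among the genes named by rule, at -1.03 ± 0.16 (SE), adjusted p = 0.00264, with levels of 573, 349.5, 37.8 and 8.16 in diabetic and 283, 13.7, 0 and 32 in control libraries. Wfdc21, Retnlg and Lcn2, all abundant in neutrophils, fell at -0.89, -0.79 and -0.64. Summed neutrophil markers in the members were 3893, 2937, 1942 and 1302 in diabetic and 4129, 2079, 1830.2 and 1524 in control libraries, highest on day 1 in each group, and their part in these slopes was not tested. Hp, the haptoglobin gene, fell at -0.22 ± 0.05 (SE), adjusted p = 0.0345, and of the interferon-stimulated list Isg15, Oasl1 and Slfn4 fell, 3 of 17 tested. Mmp8, a collagenase of granulocytes, and the formyl peptide receptor Fpr2 fell at -0.41 and -0.36. C1qb, C1qc and Rsad2 were also among the 138, and as rule genes they are given as a description only.

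Genes that rose included Irf8, a transcription factor of monocyte and dendritic cell fate, at 40.1, 76.4, 169 and 289.8 in diabetic and 52.1, 123, 168 and 205 in control libraries. Its slope was 0.39 ± 0.05 (SE), adjusted p = 0.00125. In the members without markers of other lineages, however, Irf8 on diabetic day 7 was at 21.9, and T cells held it at 81.9, 81.5, 273 and 357 in diabetic and 304, 254, 45.9 and 392 in control libraries. Vegfa, the vascular growth factor, was at 134, 116, 411 and 392 in diabetic and 161, 144, 261 and 512 in control libraries, with 0.28 ± 0.06 (SE), adjusted p = 0.0184, and Egr1, an immediate early gene, rose at 0.20 ± 0.05 (SE), adjusted p = 0.042. The 10 largest rises by the naming rule were Col1a2, Col1a1, Col3a1, Sparc, Mgl2, Gzma, Klrb1b, Thy1, Il2rb and Serpinb9. Most are known from fibroblasts, T cells or NK cells. Col1a1 was at 2.45, 0, 0 and 825 in diabetic and 0.386, 7.66, 0 and 205 in control libraries and Gzma, a granzyme, at 22.3, 10.1, 94.2 and 384 in diabetic and 7.72, 21.3, 0 and 141 in control libraries, and both were highest on diabetic day 7, the library in which 72.1% of members held a marker of another lineage. Without day 7, 13 genes were called, 9 of them shared. Leaving out the cells holding such markers also took both day 7 libraries under 20 cells, and 26 genes were called, 15 of them shared. With at least 5 such cells 8 libraries remained, and 98 genes were called, 49 of them shared.

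The antigen presentation genes H2-Ab1 and Cd74 were lowest on day 1 in both groups. H2-Ab1 was at 879, 3775, 5491 and 5343 in diabetic and 516, 3429, 4314 and 3170.3 in control libraries, and Cd74, the invariant chain, at 878, 2749, 4251 and 3931 in diabetic and 566, 3058, 3791 and 2985 in control libraries. All 12 genes of the list had a positive slope, with a median of 0.27 in log2 per day, but only Mgl2, a lectin of dendritic cells and macrophages, passed, at 0.76 ± 0.11 (SE), adjusted p = 0.00169. H2-Ab1 had 0.34 ± 0.10 (SE), adjusted p = 0.119. T cells held H2-Ab1 at 1161, 3127, 4035 and 8167 in diabetic and 522, 1822, 3145 and 2858 in control libraries. In cells thinned to 1000 UMIs a UMI was found in members at 33.5%, 73.8%, 83.3% and 89.5% in diabetic and 19%, 74.7%, 87.5% and 80.0% in control libraries. In T cells the shares were 24.5%, 67.5%, 67.3% and 90.0% in diabetic and 21.1%, 61.1%, 40.3% and 76.7% in control libraries. The T cell share was at or above that of the members on diabetic day 7 and control day 1, and the T cell CPM was above the members' on day 1 in each group and on diabetic day 7, while on diabetic day 1 the members' share was the higher. The part of free RNA in the members' H2-Ab1 was not tested. In T cells, too, day 1 was the lowest of each group.

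The difference between the groups in slope over the days was tested itself. Of 8215 genes, 0 passed in edgeR (0%), with 225 at an unadjusted p under 0.05, and DESeq2 called 0, with 113 at that p. With 7 libraries this does not show that the time courses were alike. Leaving out day 7 gave 139 calls. Leaving out the cells with markers of other lineages, which also removed both day 7 libraries, gave 47, and 2 where libraries with at least 5 such cells were kept.

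Classical monocytes were next compared with the interferon-stimulated monocytes of the same wounds, with library as a block. For this, 3 libraries had at least 20 cells of both sets (diabetic day 1 and control days 1 and 3). Of 7689 genes, 633 were called by edgeR (8.23%), with 214 higher in classical monocytes (2.78%) and 419 lower (5.45%). DESeq2 called 98 higher and 297 lower, and edgeR on libraries with at least 5 cells of both sets called 55 higher and 222 lower. The rule divided these sets on interferon-induced genes, and the 18 of 18 interferon-stimulated genes outside the rule that were lower belong to the same pathway. Ifit1 ranged over 9.30 to 49.9 in classical and 331 to 628 in interferon-stimulated monocytes and Gbp2, an interferon-induced GTPase, over 46.3 to 64.0 in classical and 327 to 974 in interferon-stimulated monocytes. Beyond that pathway, 10 of 12 chemokines, 9 of 17 glycolysis and hypoxia genes and 12 of 20 maturation genes were lower. Identity genes were higher in 7 of 12 and lower in 2, Ms4a4c and Ly6a. Of 11 MHC class II genes tested, 4 (H2-Aa, H2-Ab1, H2-Eb1 and H2-DMa) were higher and 0 lower, with a median of 0.54 against 0.03 over all genes, and H2-Ab1 had 0.50 ± 0.13 (SE), adjusted p = 0.0113. Of 8 non-classical genes tested, 3 (Ace, Itgal and Pou2f2) were higher and 0 lower, with a median of 1.47. Itgal, an integrin subunit, had 1.25 ± 0.22 (SE), adjusted p = 2.68e-04, and the adjusted p of Pou2f2, a transcription factor, was 0.00458 and reached 0.0526 over the alternatives. Mgst1, a glutathione transferase, ranged over 228 to 349.6 in classical and 30.8 to 94.7 in interferon-stimulated monocytes, with 2.07 ± 0.22 (SE), adjusted p = 2.57e-07. Saa3 ranged over 157 to 1353 in classical and 61.6 to 441 in interferon-stimulated monocytes, with 1.86 ± 0.28 (SE), adjusted p = 4.03e-05. DESeq2 did not call it (adjusted p = 0.282), and its adjusted p ranged from 5.25e-36 to 0.282 over the alternatives. Nrg1, a growth factor, ranged over 119.7 to 137 in classical and 16.6 to 55.2 in interferon-stimulated monocytes, with 1.74 ± 0.30 (SE), adjusted p = 2.38e-04. Among inflammatory genes Saa3 was the 1 of 15 that edgeR called higher, and 5 (Tnf, Il18, Osm, Il1rn and Acod1) were lower. The diabetic libraries of days 3, 5 and 7, with 19, 15 and 10 interferon-stimulated cells, were not tested and did not always keep these directions. Summed maturation genes there were at 12804, 13188 and 11075 in classical and 17359, 9296 and 9409 in interferon-stimulated monocytes. Chemokines were at 20697, 19582 and 18280 in classical and 30049, 27946 and 12559 in interferon-stimulated monocytes.

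**Figure D4:**
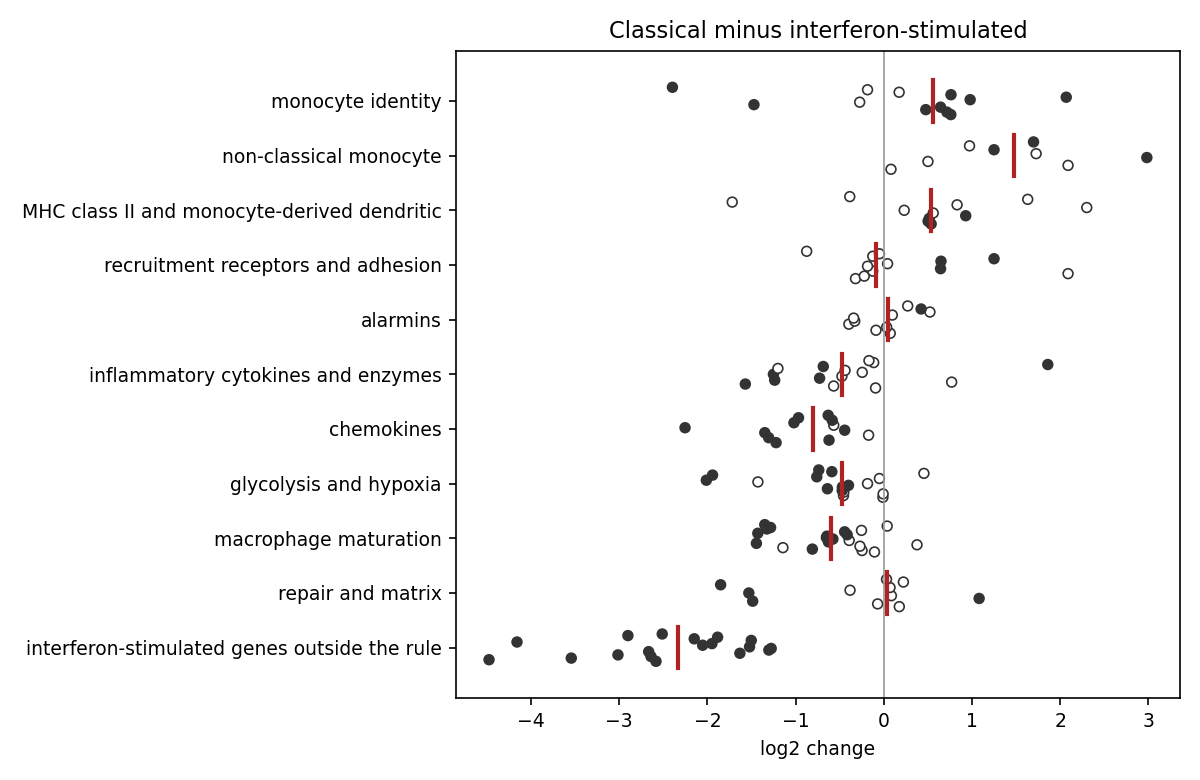
Log2 differences of classical from interferon-stimulated monocytes (horizontal axis) for each gene list, with 1 point for each gene, filled where the adjusted p was under 0.05, and a red bar at the list's median. Interferon-stimulated genes outside the rule lie left of 0, where 18 of 18 were called lower, and 10 of 12 chemokines were called lower.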

How the data were processed

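The authors trimmed reads with fastp (0.20.1 per the submitters' processing notes), listed cell barcodes with UMI-tools and aligned with STAR against the Ensembl mouse genome, per the paper's methods. The submitters' notes also name mm9, and no coordinate was taken from the deposited tables. The methods name BD Rhapsody and the series record 10X. The deposited values are raw UMI counts per gene symbol and cell, not normalized. Members and gene lists were chosen with earlier results of these data known, and so were the promoter motifs. UMIs were summed over the members of each library and tested with edgeR 4.0.16 in R 4.3.3 (quasi-likelihood, TMM, filterByExpr, Benjamini-Hochberg adjusted p of 0.05), with at least 20 cells per library. The SE of a log2 change was worked back from this test, as its absolute value divided by the square root of the F statistic. DESeq2 1.42.0 was an alternative, as were other filters on genes and cells, each day left out, and cells without markers of other lineages. Sets with at least 5 cells were added after seeing the data. The script was tested on simulated data with 200 changed genes. Genes were named by rule: for each comparison the 10 largest rises and 10 largest falls among those past the threshold, with an average of at least 32 CPM and the same direction in every day or pair (for slopes, in both groups), outside the selection rule, and members of the lists (monocyte identity, non-classical, MHC class II, recruitment, pattern receptors, alarmins, inflammatory, chemokines, interferon, glycolysis and hypoxia, maturation, repair, transcription factors, iron, immediate early, granule and cycling). Other genes called between the groups, such as Tnip3, Nid1 and Ppbp, were named after their values were seen. A gene limit of the selection rule, a named gene and the comparison with the monocytes that this limit set aside are not reported here. Intervals are exact binomial for shares, exact Poisson for levels and conditional binomial on UMI counts for ratios. They cover counting error only and no spread between mice or libraries. Libraries held 19236522 to 33842509 UMIs. Other tools were Python 3.11.15, numpy 2.4.6, scipy 1.17.1, pandas 2.3.3 and scanpy 1.11.5.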

Additional observations from a re-analysis of the deposited data

How the results depend on the processing

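The group comparison (28 genes) gave 65 calls with no filter on low counts, 51 without cells with markers of other types (30 with at least 5 such cells), 0 with no day block and 58 from libraries with at least 5 cells, and 0 to 57 with a day left out (0 without day 5, 2 without day 7, 44 without day 3 and 57 without day 1). The day 5 diabetic library had no control partner and added no residual degree of freedom (2 with and without it), while the genes tested fell from 9087 to 7987 without it, and the cause of the loss was not tested. The slopes over day (138) gave 227 calls with DESeq2, 560 with no filter, 26 without cells with markers of other types (98 with at least 5 such cells) and 13 to 264 with a day left out. The difference in slope (0) gave 12 with no filter, 47 without cells with markers of other types, 2 with at least 5 such cells, and 0 to 139 with a day left out. In these comparisons, leaving out the marked cells also took both day 7 libraries under 20 cells. Against interferon-stimulated monocytes (633), DESeq2 called 395, libraries with at least 5 cells gave 277, and these without markers of other types gave 406. Leaving out day 1 left 1 pair and no fit.

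The share differences moved on day 1 to 8.23 points with monocytes as denominator, on day 3 to -2.60 without cells with markers of other types and -22.4 with that denominator, on day 5 to 2.58, 3.32 at a Ly6c2 and Plac8 rate of at least 10, and 24.5 with that denominator, and on day 7 to 1.11 in thinned cells and 0.283 at that rate, reversing to -0.0422 without cells with markers of other types and -11.6 with that denominator. The mean difference was 0.811 at that rate and 0.912 without cells with markers of other types (sign-flip permutation p = 0.75 for both), and reversed to -0.339 with monocytes as denominator. Day was the block between the groups and library between the cell sets, and the slopes had no block. No paired analysis was possible by replicate number because each group and day has 1 library. The depth of control day 5 (9 cells) and day 7 (25 cells) limits what those days can show.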
